A study of Mus musculus with 10 samples.

Results

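The 10 genes described here encode plasma proteins that hepatocytes, the main epithelial cells of the liver, make and secrete. They are Alb, Ahsg, Trf, Ttr, Vtn, Hrg, Fga, Fgb, Fgg and Hp, and each was found once by its symbol among the 55359 genes of the deposited table. The data are RNA-seq libraries from C2C12 cells, a mouse myoblast line that fuses into myotubes when serum is lowered. The cells had received either siRNA directed at Fndc1, which encodes a secreted protein with fibronectin type III domains (si-Fndc1, 5 libraries), or a scrambled control siRNA (si-Control, 5 libraries). Both groups were collected after 4 days of differentiation in medium with horse serum, and no other treatment is named for either group. The genes were selected on their measured levels, because liver transcripts were higher in the si-Fndc1 libraries, so their levels in the 2 groups are a description and carry no test. In bulk RNA, fewer cells of a type and less RNA per cell cannot be told apart.

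Plasma proteins of the liver are transported in blood or act there. Albumin, transferrin and transthyretin carry fatty acids, iron and thyroid hormone. The 3 fibrinogen chains join into the protein that thrombin turns into fibrin, and haptoglobin captures free haemoglobin. The genes are switched on in hepatocytes by factors such as HNF1, HNF4 and C/EBP proteins, and haptoglobin and fibrinogen are acute phase proteins, made in larger amounts during inflammation.

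Promoter sequences show what letters these genes have in common before their start sites. RefSeq promoters of mouse build GRCm38.p6 were on hand for 7 of the 10 genes, and those of Alb and of the 3 fibrinogen genes are printed because Alb is the reference of every ratio below and the fibrinogen genes lie next to each other. The 250 bases before each start site come from chr5:90460620-90460869 on the plus strand for Alb, chr3:83025903-83026152 on the plus strand for Fga, chr3:83049864-83050113 on the minus strand for Fgb and chr3:83007474-83007723 on the plus strand for Fgg. Each run reads 5′ to 3′ along the gene, and capitals mark letters that matched one of 4 short motifs.
Alb: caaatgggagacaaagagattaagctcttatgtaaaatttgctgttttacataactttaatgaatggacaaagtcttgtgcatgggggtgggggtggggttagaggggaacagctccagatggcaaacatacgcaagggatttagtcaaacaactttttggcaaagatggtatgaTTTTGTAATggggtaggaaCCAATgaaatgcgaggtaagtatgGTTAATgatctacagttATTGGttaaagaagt
Fga: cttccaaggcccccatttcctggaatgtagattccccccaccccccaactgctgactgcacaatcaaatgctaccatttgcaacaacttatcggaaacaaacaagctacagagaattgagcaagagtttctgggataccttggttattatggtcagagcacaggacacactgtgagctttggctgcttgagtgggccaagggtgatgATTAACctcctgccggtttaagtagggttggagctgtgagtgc
Fgb: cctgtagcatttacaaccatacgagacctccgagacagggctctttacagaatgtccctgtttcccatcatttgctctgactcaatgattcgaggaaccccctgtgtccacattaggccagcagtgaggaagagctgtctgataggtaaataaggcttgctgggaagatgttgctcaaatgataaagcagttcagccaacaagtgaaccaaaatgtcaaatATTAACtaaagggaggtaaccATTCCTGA
Fgg: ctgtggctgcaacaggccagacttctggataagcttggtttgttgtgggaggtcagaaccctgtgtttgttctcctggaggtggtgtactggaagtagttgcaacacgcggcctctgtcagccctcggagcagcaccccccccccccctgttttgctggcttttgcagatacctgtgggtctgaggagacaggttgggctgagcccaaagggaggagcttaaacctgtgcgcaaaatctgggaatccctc
The 4 motifs, searched on both strands from 250 bases before to 50 bases after the start site, are core letters of known regulatory elements. The HNF1 string GTTAAT was in 4 of the 7 promoters, those of Alb, Vtn, Fga and Fgb, and in 7.10% of 32851 mouse promoters of the same length. The first base of the match was at -32 in Alb, -43 in Fga, -29 in Fgb and -112 in Vtn. The C/EBP string TTNNGNAAT was in Alb, Ahsg, Hrg and Fgb and in 11.5% of all promoters. The CCAAT box was in Alb, Ahsg and Hrg against 37.4% of all promoters. The TATA box, searched as TATAAA, was in Vtn and Hrg against 13.6%, and its 2 matches in Vtn lie on opposite strands and overlap. None of the 4 letter strings was in the Fgg window. A match is a string of letters, not a measured binding site.

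**Figure D1:**
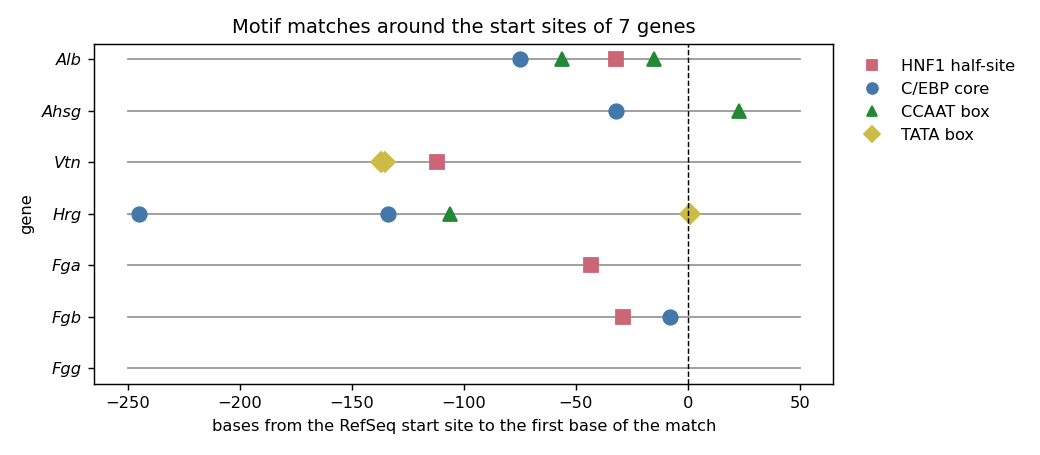
Motif matches around the RefSeq start sites of 7 genes. The x axis gives the distance in bases from the start site to the first base of each match and each row is a gene; the 3 HNF1 matches of Alb, Fga and Fgb lie between -43 and -29, and Fgg has no match.

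Total counts were between 56332844 and 75995168 per library, with si-Fndc1 5 the shallowest. The targeted gene Fndc1 was at 20.9 ± 1.70 FPKM in si-Fndc1 and 27.8 ± 2.04 FPKM in si-Control (mean ± SD, n = 5 each), which is 75.2% of the control level, and the 2 groups did not overlap. FPKM values are fragments per kilobase of gene scaled to library depth. Counts of 4 were over-represented in every library, so counting error is given with 4 counts taken as 1 fragment where stated. Transcripts of differentiating muscle were abundant in both groups. The 8 muscle markers summed to 9621.0-11563.4 CPM, counts scaled to the total of each library, in si-Fndc1 and 10311.9-11800.0 CPM in si-Control, and all 8 passed the level filter.

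Alb encodes albumin, the most abundant protein of plasma. The table places it on chromosome 5 from 90608756 to 90624461. Alb had 7687, 11579, 9004, 10794 and 1763 counts in si-Fndc1 libraries 1 to 5. In si-Control libraries 1 to 5 it had 8, 99, 357, 0 and 492 counts. Thus 4 of the si-Fndc1 libraries were alike in Alb, si-Fndc1 5 held fewer counts, and the control libraries ran from none in si-Control 4 to most in si-Control 5. Mean Alb levels were 44.3 ± 19.5 FPKM in si-Fndc1 and 1.06 ± 1.26 FPKM in si-Control, a ratio of 41.6. The lowest si-Fndc1 library was 4.26 times the highest control library.

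The other carriers showed the same split of libraries. Trf encodes transferrin, the iron carrier. It had 1717, 2455, 3406, 2642 and 731 counts in si-Fndc1 and 0, 16, 60, 0 and 123 counts in si-Control. Trf was at 8.44 ± 3.60 FPKM against 0.156 ± 0.209 FPKM, a ratio of 54.3. Ttr encodes transthyretin, the carrier of thyroxine and of retinol-binding protein. Its counts were 530, 824, 767, 958 and 161 in si-Fndc1 and 0, 23, 47, 0 and 49 in si-Control, and its ratio of mean FPKM, 27.1, was the lowest of the 10. For both genes si-Control 1 and si-Control 4 held no count, si-Control 5 was the highest control, and si-Fndc1 5 was the lowest si-Fndc1 library.

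The fibrinogen chains are encoded side by side on chromosome 3, where the table gives Fgg from 82915031 to 82922356, Fga from 82933383 to 82940934 and Fgb from 82947448 to 82957170 on the opposite strand. Fga, the alpha chain, had 285, 536, 877, 797 and 205 counts in si-Fndc1 and 0, 4, 6, 0 and 23 counts in si-Control. Fgb, the beta chain, had 298, 770, 792, 730 and 198 counts in si-Fndc1 and 0, 12, 15, 0 and 41 counts in si-Control. Fgg, the gamma chain, had 263, 619, 689, 786 and 170 counts in si-Fndc1 and 0, 0, 16, 0 and 40 counts in si-Control. Libraries 1 and 5 were the low ones in si-Fndc1 for all 3 chains, and si-Control 5 held most of the control counts. Fibrinogen contains the chains in equal number. Per length, Fgg was 1.46 to 1.96 times Fgb in the 5 si-Fndc1 libraries, and Fga was 0.881 to 1.40 times Fgb. The ratio of Fgg to Fgb in counts spread by an SD of 0.16 on the log2 scale, no more than the 0.210 that counting error gives if 4 counts make 1 fragment.

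The inhibitor, adhesion and scavenger genes were also near absent in the control libraries. Ahsg encodes fetuin-A, which keeps calcium phosphate in solution. Ahsg had 988, 1921, 1750, 1741 and 438 counts in si-Fndc1 and 0, 19, 43, 0 and 26 in si-Control, a ratio of mean FPKM of 79.2. Hrg encodes histidine-rich glycoprotein, which binds heparin and plasminogen, and lies on chromosome 16 as Ahsg does. It had 98, 238, 234, 233 and 80 counts in si-Fndc1. Only 1 control library, si-Control 5, had any Hrg count, namely 4, so its ratio of 221.6 rests on that library and has no value without it. Vtn encodes vitronectin, an adhesion protein that integrins bind. Vtn had 278, 403, 609, 465 and 112 counts in si-Fndc1 against 4, 0, 12, 0 and 16 counts in si-Control, a ratio of 61.4. Hp, haptoglobin, had 348, 1063, 1199, 985 and 414 counts in si-Fndc1 against 12, 0, 27, 0 and 6 counts in si-Control, a ratio of 96.3. Hp and Hrg differed from the other 8 genes in that si-Fndc1 1, not si-Fndc1 5, was their lowest si-Fndc1 library per length.

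**Figure D2:**
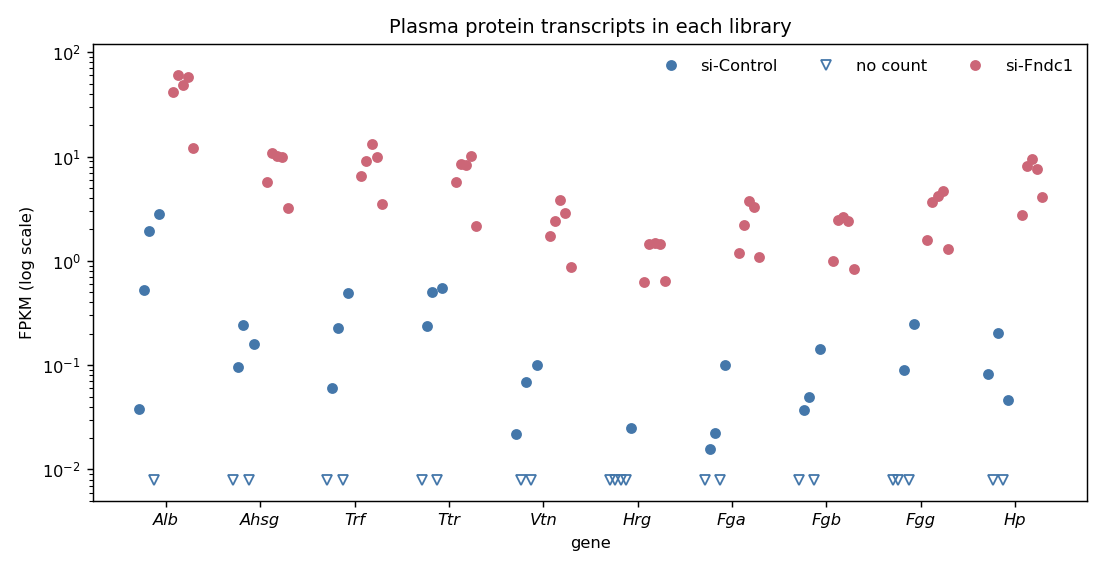
Level of each of the 10 plasma protein transcripts in each library. The y axis is FPKM on a log scale, filled points are libraries and open triangles at the bottom mark libraries with no count; for each gene all 5 si-Fndc1 libraries lie above all 5 si-Control libraries, and si-Control 4 has no count of any of the 10.

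In all 10 genes every si-Fndc1 library lay above every si-Control library in CPM. Of 28952 genes with a count, 6.60% showed this, and 17.3% of 13548 tested genes were called higher by edgeR at an adjusted p under 0.05; the 10 genes were selected in this comparison, so nothing is read from the difference. All 10 passed the filter of a mean of 0.5 FPKM over the 10 libraries, 9 of them only through their si-Fndc1 levels, since among the 10 only Alb had a control mean above that limit. Hrg, at a mean of 0.570 FPKM, was closest to that limit. Per length, the order of the si-Fndc1 means was Alb, then Trf (8.44 FPKM), Ahsg (7.94 FPKM), Ttr (6.95 FPKM) and Hp (6.44 FPKM), then Fgg (3.08 FPKM), Vtn (2.34 FPKM), Fga (2.30 FPKM), Fgb (1.87 FPKM) and Hrg (1.14 FPKM). The ranges over the 5 libraries overlapped between all neighbours in this order, Alb and Trf included, since Alb in si-Fndc1 5 was below Trf in si-Fndc1 3. Within each si-Fndc1 library, however, Alb was the highest of the 10.

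The control level was set by a few libraries. Summed over the 10 genes, the control libraries 1 to 5 held 0.316, 2.42, 8.18, 0 and 12.3 CPM, and the si-Fndc1 libraries 1 to 5 held 177.1, 280.2, 274.0, 280.2 and 75.8 CPM. In si-Control 4 none of the 10 genes had a count among 72761511, which allows up to 0.0412 CPM for each gene at a floor of 3 counts, or up to 0.165 CPM if 4 counts make 1 fragment. The median log2 ratio of mean FPKM over the 10 genes was 5.85, and it was 6.54 without si-Control 5. Without that library the log2 ratio moved from 5.38 to 6.15 for Alb, from 5.76 to 6.88 for Trf, from 5.94 to 6.69 for Vtn, from 6.37 to 7.91 for Fga, from 5.34 to 6.43 for Fgb and from 5.50 to 7.08 for Fgg. Without si-Control 3 it moved from 6.31 to 6.96 for Ahsg and from 6.59 to 7.64 for Hp. The direction was the same for every gene without any 1 library, except that Hrg has no value without si-Control 5.

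The ratio of each transcript to Alb shows whether the 10 transcripts kept their proportions. Ttr kept closest to Alb, with 68.9, 71.2, 85.2, 88.8 and 91.3 counts per 1000 Alb counts in si-Fndc1 libraries 1 to 5. Its SD on the log2 scale was 0.19, which is 1.29 times the counting error at 4 counts to a fragment. Hp kept least to Alb, with 45.3, 91.8, 133.2, 91.3 and 234.8 counts per 1000 Alb counts. This is a 5.19-fold range over libraries of 1 group, with an SD of 0.87, or 7.07 times the counting error. Between these, the highest library was 1.93 times the lowest for Ahsg, 1.94 times for Vtn and 1.96 times for Trf. It was 2.82 times for Fgg, 2.90 times for Fgb, 3.14 times for Fga and 3.56 times for Hrg. The libraries were ordered alike for most genes. The ratio was highest in si-Fndc1 5 for 8 of the 9 genes and in si-Fndc1 3 for Vtn, and it was lowest in si-Fndc1 1 for 7 of the 9 and in si-Fndc1 2 for Trf and Vtn. Since the 9 ratios share the Alb count, a low Alb count raises all of them together. With the geometric mean of the other genes as the reference in place of Alb, the median SD fell from 0.57 to 0.25.

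**Figure D3:**
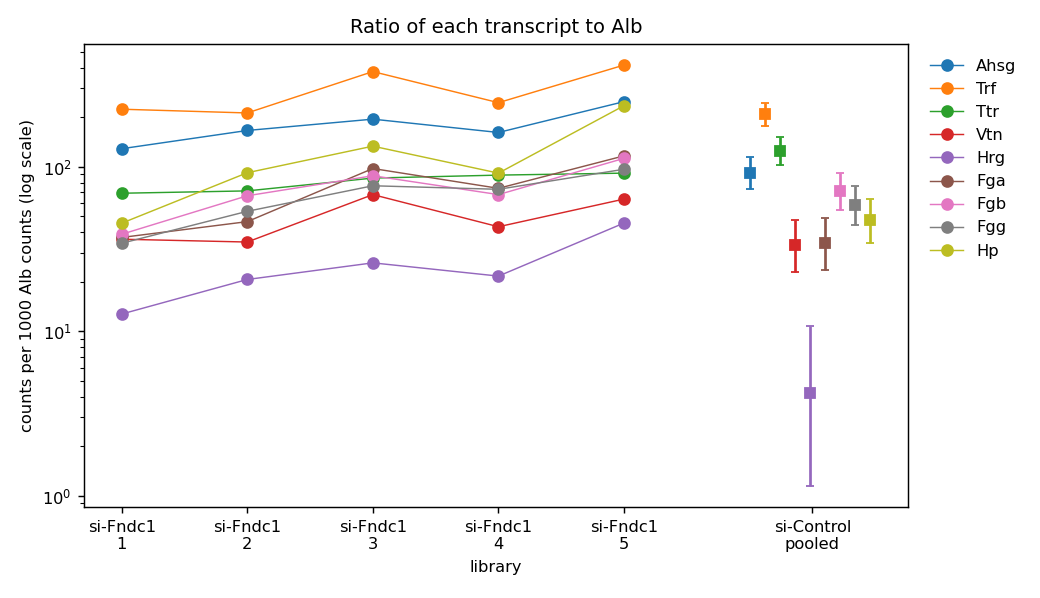
Counts of 9 plasma protein transcripts per 1000 Alb counts. The y axis is a log scale, lines join the values of a gene in the 5 si-Fndc1 libraries and have no order in time, and squares with bars are the pooled si-Control libraries with exact 95% intervals; Hp ranges from 45.3 to 234.8 and Ttr from 68.9 to 91.3 in si-Fndc1.

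Some pairs moved more closely with each other than with Alb. Over the 45 pairs, the steadiest was Trf with Vtn, whose count ratio varied 1.17-fold over the 5 si-Fndc1 libraries with an SD of 0.09. Fgb with Fgg followed at 0.16, Hrg with Fgb at 0.17 and Alb with Ttr at 0.19. At 4 counts to a fragment, counting error alone gives 0.182 for Vtn against Alb, 0.210 for Fgg against Fgb and 0.145 for Ttr against Alb. Nothing is therefore read from the order of the steadiest pairs. The widest pair was Alb with Hp. Library by library, si-Fndc1 2 and 4 had the most similar profiles, with an SD of the log2 ratio over the 10 genes of 0.24, and si-Fndc1 1 and 5 the least similar, at 0.71. The log2 ratio of si-Fndc1 5 to si-Fndc1 1 was -1.80 for Alb and 0.58 for Hp, so these 2 transcripts differed in opposite directions.

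The make-up of the 10 transcripts was compared with the pooled controls, which held 1600 counts of them against 76630 in si-Fndc1. Alb made up 61.5%, 56.7%, 46.6%, 53.6% and 41.3% of the 10 in si-Fndc1 libraries 1 to 5. In si-Control it made up 57.2% (95% exact interval 49.5-64.7%) in library 2, 61.2% (57.1-65.2%) in library 3 and 60.0% (56.6-63.4%) in library 5. In si-Control 1 the 10 genes had 24 counts in all, 12 of them Hp and 8 of them Alb. The pooled control rests mostly on si-Control 3 and si-Control 5, which held 583 and 820 of the 1600 counts. For 6 of the 10 genes the pooled control share lay within the range of the si-Fndc1 libraries. Outside it were Ttr, with 7.44% against 3.77-4.76%, Ahsg, with 5.50% against 7.91-10.3%, Fga, with 2.06% against 2.28-4.80%, and Hrg, with 0.250% against 0.785-1.87%. With 4 counts to a fragment, the control interval reached the si-Fndc1 range for Ahsg (3.48-8.21%), Fga (0.867-3.90%) and Hrg (0.00633-1.38%), and not for Ttr (5.12-10.5%). Per 1000 Alb counts, the pooled control was outside the si-Fndc1 range for these genes and also for Trf and Vtn. It was 208.2 against 212.0-414.6 for Trf and 33.5 against 34.8-67.6 for Vtn, and both exact intervals reached the range. Fgb, Fgg and Hp lay within it.

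**Figure D4:**
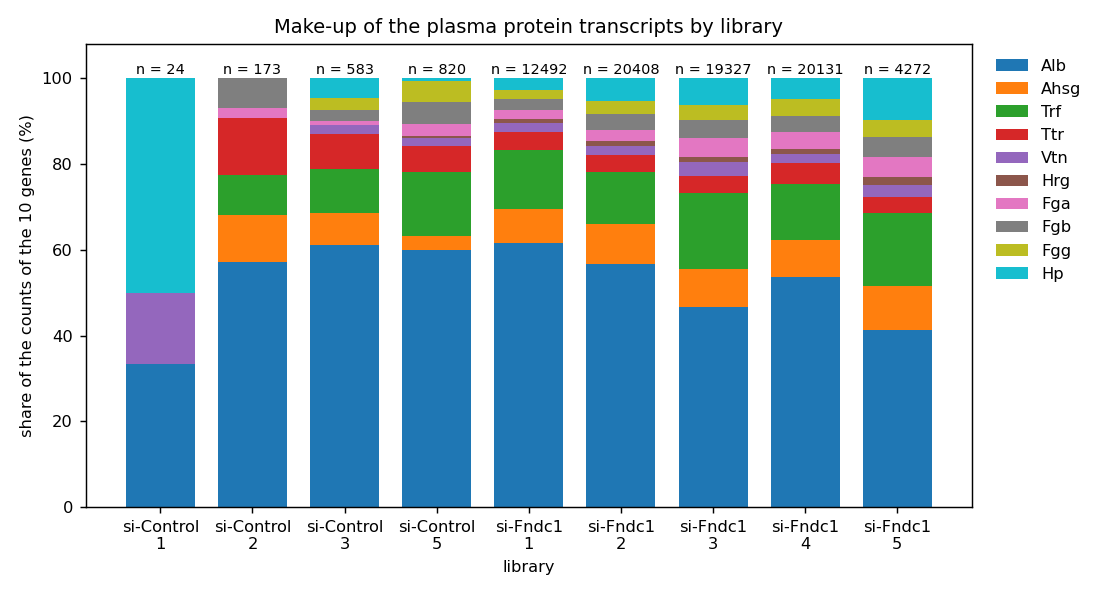
Make-up of the 10 plasma protein transcripts by library. Each bar splits the counts of the 10 genes in 1 library, given above it, into percentages on a linear axis from 0 to 100; si-Control 4 has no count and no bar, and Alb is the largest part in every library shown but si-Control 1, which has 24 counts.

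Genes outside the 10 that kept the most constant ratio to Alb were sought among 12211 genes with at least 100 counts in each si-Fndc1 library. The 10 most like Alb over these 5 libraries were Etv6 (SD of the log2 ratio 0.31), Socs7 (0.33), Golph3l (0.34), Nemp1, Gc, Apoa2, Cyp2e1 and Tor1aip1 (0.35 each), Acaa1b (0.36) and Yipf6 (0.37), against a median of 0.98. No gene outside the 10 kept as close to Alb as Ttr (0.19), 7 kept closer than Ahsg (0.35) and 792 kept closer than Hp (0.87). Of the 10, Gc, Apoa2 and Cyp2e1 are liver genes, for the vitamin D binding protein, an apolipoprotein and a cytochrome P450, and had no count in si-Control 4. Etv6, Socs7, Golph3l, Nemp1 and Yipf6 were expressed in every control library and their si-Fndc1 means were not above the control means. Tor1aip1 and Acaa1b were also expressed in every control library, and their log2 ratios of mean CPM were 1.07 and 1.13. Over 5 libraries this likeness is a description.

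Of these 12211 genes, 18 had no count in si-Control 4, a set chosen after its values were seen. Among them were Gc, Apoa2, Cyp2e1, Fabp1, Serpina1b, Serpina1a, Serpina1c, Adh1, Apoa1, Itih4, Mat1a, Apoc3, Serpina3k, Ambp, Apoa4, Bhmt and Fgl1. They include apolipoproteins of high density lipoprotein, plasma protease inhibitors and enzymes of alcohol and methionine metabolism. Apoa1, the main protein of high density lipoprotein, had at least 753 counts in each si-Fndc1 library and at most 59 in a control library.

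Other plasma proteins that hepatocytes make were listed by role, 70 genes in all, of which 69 were found by symbol, 67 had a count and 27 passed the filter. Of the 27, 25 were called higher in si-Fndc1 and none lower by edgeR (adjusted p under 0.05), against 17.3% called higher and 17.2% called lower of all 13548 genes tested. Of the 27, however, 21 had a control mean under 0.5 FPKM and passed the filter only through their si-Fndc1 level, so the filter favoured a call and nothing is read from that count. Of the 6 with a control mean above it, 4 were called higher and none lower. By DESeq2, 26 of the 27 were called in either direction, against 5019 of all 13548 genes tested. The filter favoured these calls too, so nothing is read from them. Liver transcripts were known to be higher in these libraries when the list was made, so the count is not independent evidence. The median log2 ratio of mean CPM over the 67 genes was 5.04, beside -0.01 over all genes with a count. The 10 protease inhibitors that were tested all passed the filter through si-Fndc1 alone, so their values are given as levels. Ambp, the precursor of alpha-1-microglobulin and bikunin, was at 3.58 ± 1.40 FPKM against 0.0208 ± 0.0316 FPKM. Serpina3k was at 6.70 ± 3.39 FPKM against 0.156 ± 0.264 FPKM. The Serpina1 genes, alpha-1-antitrypsins, are near copies of each other, and how reads were split among them is uncertain. Serpina1c was at 5.42 ± 2.66 FPKM against 0.155 ± 0.171 FPKM, and Serpina1b at 4.69 ± 2.11 FPKM against 0.113 ± 0.148 FPKM.

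Of the 6 carriers tested, 5 passed the filter through si-Fndc1 alone, and those named here are given as levels. Hpx, hemopexin, which binds free haem, had 275, 1382, 1544, 1037 and 326 counts in si-Fndc1 and 3, 0, 19, 4 and 36 in si-Control (log2 ratio of mean CPM 6.17). As with Hp, its low libraries in si-Fndc1 were 1 and 5. Gc had 708, 1294, 1217, 1156 and 303 counts in si-Fndc1 and 0, 15, 28, 0 and 43 in si-Control. The log2 ratio of mean CPM for Gc was 5.74. Cp, ceruloplasmin, a copper carrier, was expressed in the controls at 14.6 ± 0.598 FPKM and differed by much less, its log2 fold change being 0.28 (adjusted p = 0.000249).

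Complement and clotting genes fell into both kinds. C3 and Kng1 passed the filter through si-Fndc1 alone and are given as levels. C3, the central complement protein, was at 2.56 ± 0.999 FPKM against 0.0856 ± 0.0490 FPKM. Cfb, complement factor B, was not called, with a log2 fold change of 0.70 and an adjusted p of 0.0728. Of the clotting genes, Kng1, a kininogen, was at 1.19 ± 0.547 FPKM against 0.0193 ± 0.0353 FPKM. F2, prothrombin, had a log2 fold change of 0.71 (adjusted p = 0.0108). Kng2 had one of 0.69 (adjusted p = 0.00643). F2 overlapped between groups in CPM. Its 341 counts in si-Fndc1 5, the shallowest library, cannot be set directly against the 371 to 455 counts of the deeper controls. The second gene not called was F7, coagulation factor VII, at 1.14 ± 0.102 FPKM against 1.04 ± 0.354 FPKM.

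Acute phase proteins and liver hormones had the highest median of the role groups, a log2 ratio of 5.84, but only 2 of the 12 passed the filter, both through si-Fndc1 alone. Hamp, hepcidin, the hormone that limits iron export, had 102, 280, 240, 160 and 37 counts in si-Fndc1 and 0, 4, 0, 0 and 2 in si-Control. Lrg1 was at 1.17 ± 0.621 FPKM against 0.0210 ± 0.0318 FPKM. Saa1, serum amyloid A, was too low to be tested and varied widely, with 9, 103, 452, 126 and 117 counts in si-Fndc1 and 11, 4, 0, 0 and 0 in si-Control. Its values in the groups overlapped.

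**Figure D5:**
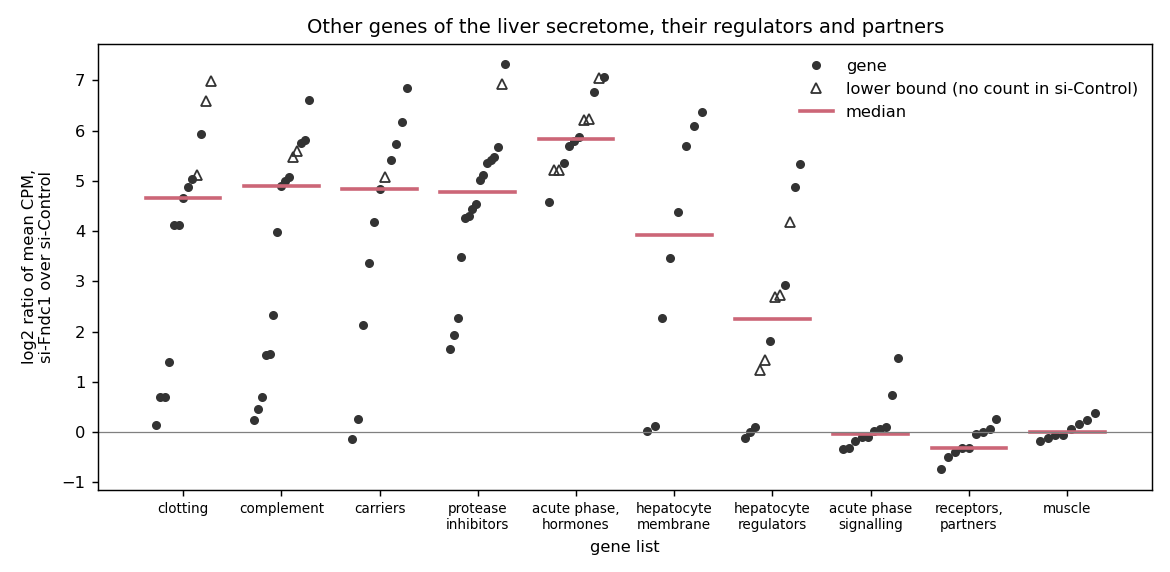
Log2 ratio of mean CPM, si-Fndc1 over si-Control, for genes outside the 10, by list. Each point is a gene, triangles are lower bounds for genes with no count in si-Control and red bars are medians; the plasma protein lists have medians between 4.66 and 5.84, and acute phase signalling, receptors and muscle have medians between -0.31 and 0.01.

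Transcription factors and surface proteins of hepatocytes were scarcer. Of 13 regulators, 1 passed the filter, Cebpa, which was not called (log2 fold change -0.11, adjusted p = 0.881). It had 1468-1842 counts in si-Fndc1 and 2312-2552 counts in the controls other than si-Control 2, which had 202. Of the 8 surface proteins none passed. Thus only 1 of these 21 genes was tested. It was not called by edgeR, also not at an unadjusted p under 0.05, or by DESeq2, which says nothing about the others. When no filter was applied, 8 of the 21 were called higher by edgeR, against 7.62% of 28952 genes. Hnf4a, a main regulator of hepatocyte genes, had 23-91 counts in the si-Fndc1 libraries and 0-4 in the controls. Asgr1, a subunit of the asialoglycoprotein receptor, had 26, 150, 106, 85 and 29 counts in si-Fndc1 and 4, 0, 4, 0 and 0 in si-Control. Slc10a1, the bile acid importer, had 40-112 counts against 0-14. Asgr2, Foxa3 and Creb3l3 overlapped between groups. Onecut1 had no count in any library. The summed CPM of the 10 plasma protein genes was 24.8, 25.7, 25.1, 27.4 and 20.2 times the sum of the 8 surface genes in si-Fndc1 libraries 1 to 5, and 3.85, 2.61, 2.36, 2.77 and 1.68 times the sum of the 16 protease inhibitor genes. The first of these proportions varied less between libraries than the second, but nothing is read from this. Both sums include genes with counts in the controls, where the surface genes summed to 2.62-3.92 CPM and the inhibitors to 1.40-8.82 CPM. In si-Fndc1 5 the surface genes summed to 3.75 CPM, which lies within their control range.

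Genes that signal the acute phase response were called in both directions. Of 10 listed, 9 were tested, 1 was called higher and 3 lower, against 17.3% and 17.2% of all tested genes, with a median log2 ratio of -0.04. The gene not tested, Il6, encodes interleukin-6, a main inducer of acute phase proteins. Il6 had 63, 100, 99, 89 and 85 counts in si-Fndc1 and 32, 59, 35, 14 and 25 counts in si-Control, a log2 ratio of mean CPM of 1.48 with no overlap in CPM. With no filter, 2 of the 10 genes were called higher, against 7.62% of 28952 genes. Il1b, an inflammatory cytokine, was at 1.37 ± 0.209 FPKM against 0.826 ± 0.119 FPKM (log2 fold change 0.73, adjusted p = 0.00319). Lifr, the receptor of leukaemia inhibitory factor, was lower by a log2 fold change of -0.31 (adjusted p = 0.000143). Il6st, the shared signalling subunit of the interleukin-6 receptors, had a log2 fold change of -0.34 (adjusted p = 0.0448) and Stat3, the factor they activate, one of -0.18 (adjusted p = 0.0259). The Il6st call was lost in 10 of 17 alternatives and the Stat3 call in 6 of 17, and without si-Control 4, si-Fndc1 3 or si-Fndc1 5 only 2 of the 4 calls were made.

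Receptors and binding partners of the 10 proteins were expressed in the C2C12 cells themselves. Of 9 listed, 8 were tested, 1 was called higher and 5 lower, against the 17.3% and 17.2% of all genes. Tfrc, the transferrin receptor, was at 24.1 ± 0.868 FPKM against 20.0 ± 0.505 FPKM (log2 fold change 0.28, adjusted p = 9.91e-05). Fcgrt, which recycles albumin and immunoglobulin G, was lower, at 39.1 ± 3.03 FPKM against 51.4 ± 3.18 FPKM (log2 fold change -0.39, adjusted p = 0.000512). Lrp1, an endocytic receptor, was lower by a log2 fold change of -0.50 (adjusted p = 4.36e-05). Integrin subunits that bind vitronectin were also lower, with log2 fold changes of -0.74 for Itgav (adjusted p = 0.0241), -0.30 for Itgb3 (adjusted p = 0.000865) and -0.32 for Itgb5 (adjusted p = 0.000146). Itgav was at 5.85 ± 0.458 FPKM against 9.82 ± 3.87 FPKM. Its counts in si-Control libraries 1 to 5 were 6548, 5749, 11578, 12545 and 5644, so si-Control 3 and si-Control 4 were the highest. Without si-Control 3 its log2 fold change was -0.59, and without si-Control 4 it was -0.56. The Itgav call was lost without si-Control 3, si-Control 4, si-Fndc1 3, si-Fndc1 4 or si-Fndc1 5, with adjusted p up to 0.0585. It was also lost with the replicate number as a block, with adjusted p = 0.0655.

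Markers of other cell types of the liver, of red blood cells and of the choroid plexus were counted beside the plasma protein genes. Of 9 Kupffer cell markers, 7 had a count, all in si-Fndc1, and none had a count in si-Control. Their sum was 0.142-0.640 CPM in si-Fndc1, and Timd4 and Adgre1 were at 0 in every library. Only Clec4f, with 8-29 counts, was counted in every si-Fndc1 library. Each of the other counted markers was at 0 in several si-Fndc1 libraries and had at most 15 counts in any. Of 8 liver endothelium markers 7 had a count, with a sum of 19.6-25.1 CPM in si-Fndc1 and 19.4-23.6 CPM in si-Control, and Cdh5 was at 0. Of 5 stellate cell markers 3 had a count, at 7.51-9.51 CPM and 8.22-10.4 CPM, with Lrat and Hand2 at 0. Of 6 bile duct markers 4 had a count, at 35.2-43.3 CPM and 39.3-46.5 CPM, with Epcam at 0. Dnase1l3, Colec10 and Sox9 made up much of these sums and were not called. For erythroid markers, 6 of 7 had a count, at 1.69-2.33 CPM and 0.629-1.72 CPM. Hba-a1 was not called (adjusted p = 0.352), and Hbb-bs had 0-36 counts in si-Fndc1 and 0-1 in si-Control. Choroid plexus, which also makes transthyretin and transferrin, had 3 of 5 markers with a count, at 0-0.156 CPM and 0-0.285 CPM, with Kl and Otx2 at 0. Of 5 sex-linked genes Xist was expressed in all 10 libraries, Kdm5d and Uty were at 0, and the Y-linked genes Ddx3y (0, 12, 0, 4 and 8 counts) and Eif2s3y (0, 4, 4, 0 and 0 counts) had counts only in si-Fndc1. The part of any other cell or RNA source in the levels of the 10 genes was not tested.

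The annotation of the 10 genes follows from their choice as secreted plasma proteins, and nothing is read from it. All 10 carry the term extracellular region in the annotation of the deposited table. Extracellular space is given to 9, all but Hrg. Blood coagulation and the fibrinogen complex are given to Fga, Fgb and Fgg, and the acute-phase response to Ahsg and Hp.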

How the data were processed

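RNA from 5 si-Fndc1 and 5 si-Control libraries of C2C12 cells was sequenced by the authors. The deposited table gives counts per gene and FPKM values (per kilobase of gene and scaled to depth, computed by the authors) for the 10 libraries, and every sample column was used (0 left out). Columns were matched to samples by title. The descriptions of the upstream steps differ: the study's methods name TopHat, mm10 and htseq-count, the series text names STAR and mm9, and the submitters' processing notes list cutadapt 1.9, FastQC and GRCm39. The table itself names no build, and its coordinates are printed as given. The study's methods mention fewer libraries than the 10 used here, and the descriptions also differ in transfection reagent, serum and time of collection. Nothing says that replicates came from separate cultures, so p-values measure the spread between these samples, which may be technical.

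Counts were tested with edgeR 4.0.16 (quasi-likelihood, TMM, Benjamini-Hochberg) for 13548 genes with a mean of at least 0.5 FPKM, in R 4.3.3. DESeq2 1.42.0, limma 3.58.1 on log2(FPKM + 1) and other settings were alternatives. The edgeR step was tested on simulated data. CPM is the count scaled to the library total. Ratios of lists use mean CPM, with 3 counts per group as the floor where a group had none. Counts of 4 were far more frequent than counts of 3 or 5 in every library (961-1142 genes against 201-437), so 1 count may not be 1 independent fragment, and exact 95% intervals, which cover counting error only, are too narrow if so. FPKM was listed at 0.0001 where the count was 0. Total counts gave a floor of 0.0395-0.0533 CPM per library.

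The 10 genes and all lists were chosen with earlier results of these data known. Named genes were the 10, the 3 highest in si-Fndc1 of each plasma, membrane and regulator list, called genes of the signalling and receptor lists, the highest marker of each other cell type and the 10 most like Alb. Ambp, Apoa1, F7, Hnf4a, Il6, Hbb-bs, Ddx3y and Eif2s3y and the genes without a count in si-Control 4 were named after their values were seen. Same-numbered libraries did not deviate together (correlations from -0.04 to 0.05), and no 2 replicates agreed within sampling noise (chi-square over its degrees of freedom was 43.04 or more in 20 pairs). C5 was not found by symbol. Some list genes are not reported here by name.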

Additional observations from a re-analysis of the deposited data

Results flagged for a closer look

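Of 116 gene and group combinations (58 genes), 11 had 1 library whose gap to the nearest other library was over 0.71 of the range of its group of 5, where chance flags about 1 in 20 groups. In si-Control 5, Fga was at 0.344 CPM against 0-0.0841 CPM in the other controls. Kng1 was at 0.300 CPM there against 0-0.0561 CPM, and Serpina3k at 1.42 CPM against 0-0.266 CPM. That library also had the highest summed level of the 10 plasma protein genes among the controls. Il6st was at 266.1 CPM in si-Control 5 against 166.7-184.3 CPM.

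In si-Control 2, Cebpa was at 2.83 CPM against 31.6-35.8 CPM in the other controls, and Xist at 1294.8 CPM against 1401.6-1428.8 CPM. Sox9 was at 34.8 CPM in si-Fndc1 2 against 27.1-29.2 CPM. In si-Fndc1 5, Socs7 was at 23.2 CPM against 65.2-69.2 CPM, Golph3l at 7.54 CPM against 20.9-25.1 CPM, Nemp1 at 4.76 CPM against 13.1-13.6 CPM and Yipf6 at 13.7 CPM against 34.8-38.1 CPM. These last 4 genes are among the 10 most like Alb, which was also lowest in si-Fndc1 5, so they were selected for that library's value.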

How the results depend on the processing

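The number of other plasma protein genes called higher was 25 of 27 tested. With no filter it was 57 of the 67 with a count, where 7.62% of 28952 genes were called higher. With a mean of at least 5 FPKM it was 2, which leaves 2 of them to test. It was 21 to 26 without any 1 library. The list was made with liver transcripts known to be higher, so nothing is read from these counts. The 0 regulator and membrane genes called, with only 1 tested, became 8 of 21 with no filter, against the same 7.62%. The 4 acute phase signalling genes called were 2 with the replicate number as a block and 2 to 4 without any 1 library. The replicate block gave 3572 called genes against 4663 in all, and the numbers do not pair the libraries, since 0 of 5 same-numbered pairs correlated above 0.1. The median log2 ratio of the 10 genes, 5.85, was 6.74 from median FPKM, where Hrg and Fgg have no value, and 5.53 to 6.54 without any 1 library. The median SD of the ratio to Alb, 0.57, was 0.25 with the geometric mean of the other genes as reference and 0.44 to 0.65 without any 1 library. No result reversed its direction under the alternatives run. Counting 4 counts as 1 fragment, and leaving out Hp, were chosen after seeing the data. Depth limits control levels: a gene with no count in a control library could be at up to 0.0449 CPM there, or 0.180 CPM if 4 counts make 1 fragment.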
